A study of Mus musculus with 6 samples.

Results

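The 9 genes described here mark Kupffer cells, the resident macrophages of the liver, and were read from the RNA of 6 mouse liver tumours. They were taken by symbol, each matching 1 Ensembl gene: Clec4f, Timd4, Vsig4, Marco, Cd5l, Folr2, Cd163, Id3 and Nr1h3. They are 9 of the 55536 genes in the count table, and all 9 were among the 17423 that had enough reads to be tested. Each was also set against Adgre1, a surface receptor carried by most mouse macrophages, in the same library.

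Of the tumours, 3 came from mice given TSDP (replicates 1, 2 and 5). The other 3 came from mice not given TSDP, called Control (replicates 3, 4 and 5). TSDP is the name in the sample titles for a nanoparticle loaded with DNIC, a nitric oxide donor, and sorafenib, a kinase inhibitor used against hepatocellular carcinoma. The TSDP mice received 6 intravenous doses, the first on day 10 and the last on day 23. Every tumour was taken on day 24. All 6 tumours grew in male C3H mice, aged 6 to 8 weeks at implantation, from 1000000 HCA-1 cells placed under the liver capsule. HCA-1 is a single mouse hepatocellular carcinoma line, so host liver and immune cells enter the RNA only as far as they lay in the piece of tissue taken. Whether an empty carrier was given to Control mice is not stated, and no batch is named. The comparison asks how the treatment and the transcripts of the tumour go together.

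Kupffer cells line the liver sinusoids, where they clear bacteria, dying cells, haemoglobin and modified lipids from the blood. Their identity depends on their place: signals from hepatocytes, stellate cells and sinusoidal endothelium, among them Notch ligands and bone morphogenetic proteins, switch on factors such as Nr1h3 and Id3. Monocytes that enter the liver can take on some of these genes with time, whereas macrophages of a tumour mostly lack Clec4f. In bulk tissue, fewer cells of a type and less RNA per cell cannot be told apart.

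The 9 genes did not share 1 order across the tumours. Clec4f, Timd4, Vsig4, Cd5l and Nr1h3 had higher mean levels in TSDP tumours, 2.32 to 4.44 times those of Control tumours. Marco, Cd163 and Id3 lay between 0.948 and 1.29 times, and Folr2 at 0.483 times. With edgeR's quasi-likelihood test, 0 of the 9 passed a Benjamini-Hochberg adjusted p of 0.05, against a background of 0% called higher and 0% called lower among all genes. DESeq2 called 1 of the 9, beside 2.98% of its genes called higher and 0.397% called lower, and limma-voom called 0. At an unadjusted p under 0.05 there were 2 of the 9, Vsig4 and Nr1h3, both higher in TSDP. Of all genes, 8.6% were higher and 4.75% lower at that p. That count of 2 was 1 without TSDP 1, 1 without TSDP 2 and 4 without Control 4, where all genes numbered 1326, 1496 and 3383 in turn. Log2 fold changes were above 0 for 7 of the 9, against 47.3% of all genes, and below 0 for 2, against 52.7%. Their median was 1.21, beside a median of -0.0217 over all genes tested.

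Total counts were 36376925 to 36629665 reads in the TSDP libraries and 32130808 to 38953397 in the Control libraries. The library Control 3 stood apart: 12 hepatocyte markers summed to 124 CPM there (counts per 1000000 reads, with library sizes scaled by TMM), while in the other 5 libraries the sum was at least 3787 CPM. The tumour label names a hepatocellular carcinoma, of which Afp, a fetal liver protein of many such tumours, had 4.24 to 9.20 CPM in TSDP and 3.27 to 3.68 CPM in Control. The labels name no animal for each tumour beyond its number, and the p-values therefore cover only the spread among these libraries, which may be partly technical.

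The stretches of DNA before the start of 6 of the genes are shown, in 2 groups. Clec4f, Timd4, Vsig4 and Cd5l ran alike across the tumours (Pearson r of log2 CPM 0.891 to 0.993). Marco and Cd163 ran together less closely (r = 0.796). The borders are not sharp: with the first 4, Nr1h3 had r of 0.904 to 0.956 and Id3 0.694 to 0.808. Folr2 had 0.807 with Cd163 and 0.551 with Marco. Nr1h3, Id3 and Folr2 are not shown. The sequences come from RefSeq on build GRCm38.p6, which lists all 9 genes. They run 5′ to 3′ on the strand of the gene up to the base before its start. The positions are chr6:83656188-83656366 (minus strand) for Clec4f, chr11:46810549-46810798 (plus) for Timd4, chrX:96293439-96293688 (minus) for Vsig4, chr3:87357631-87357880 (plus) for Cd5l, chr1:120505025-120505274 (minus) for Marco and chr6:124304401-124304650 (plus) for Cd163. Capitals mark matches to GAGGAA (a core motif of the macrophage factor Spi1), TGCTGA (a core bound by MAF factors) or AGGTCA (a core bound by nuclear receptors such as Nr1h3), searched on both strands.
Clec4f: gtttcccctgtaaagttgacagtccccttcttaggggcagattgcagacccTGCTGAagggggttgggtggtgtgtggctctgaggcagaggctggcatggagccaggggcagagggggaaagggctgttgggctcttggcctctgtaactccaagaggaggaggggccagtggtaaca
Timd4: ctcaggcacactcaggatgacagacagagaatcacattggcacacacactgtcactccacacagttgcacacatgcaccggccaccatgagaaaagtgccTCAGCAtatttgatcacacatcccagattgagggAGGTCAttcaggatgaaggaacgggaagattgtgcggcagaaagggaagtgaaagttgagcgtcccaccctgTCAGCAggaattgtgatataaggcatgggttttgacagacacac
Vsig4: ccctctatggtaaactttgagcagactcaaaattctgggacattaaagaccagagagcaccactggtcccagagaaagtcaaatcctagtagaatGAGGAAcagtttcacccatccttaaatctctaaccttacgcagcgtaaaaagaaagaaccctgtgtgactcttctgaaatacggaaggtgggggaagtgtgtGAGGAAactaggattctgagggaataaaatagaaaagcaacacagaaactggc
Cd5l: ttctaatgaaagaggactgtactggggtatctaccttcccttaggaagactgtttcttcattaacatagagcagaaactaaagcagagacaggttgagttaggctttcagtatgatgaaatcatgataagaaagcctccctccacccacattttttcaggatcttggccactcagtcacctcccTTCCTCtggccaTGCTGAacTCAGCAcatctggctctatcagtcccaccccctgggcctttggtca
Marco: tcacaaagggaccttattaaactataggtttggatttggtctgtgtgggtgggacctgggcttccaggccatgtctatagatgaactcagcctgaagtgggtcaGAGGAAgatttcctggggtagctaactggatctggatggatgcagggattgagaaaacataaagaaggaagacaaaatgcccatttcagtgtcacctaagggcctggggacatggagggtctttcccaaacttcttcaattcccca
Cd163: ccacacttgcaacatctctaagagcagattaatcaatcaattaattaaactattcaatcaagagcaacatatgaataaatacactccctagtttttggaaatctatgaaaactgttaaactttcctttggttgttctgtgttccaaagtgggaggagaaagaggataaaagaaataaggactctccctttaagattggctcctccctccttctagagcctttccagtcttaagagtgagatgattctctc

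Windows of 250 bases before all 32851 RefSeq starts held GAGGAA in 23.3%, TGCTGA in 16.1% and AGGTCA in 14% of cases. The Vsig4 window held 2 matches to GAGGAA, and the Cd5l and Marco windows 1 each. TGCTGA was matched 2 times before Timd4, 2 times before Cd5l and 1 time before Clec4f. Timd4 had 1 match to AGGTCA, and Cd163 matched none of the motifs. The Clec4f sequence stops at 179 bases, because the other 71 of its window, which hold a match to AGGTCA, lie inside the gene as GENCODE M21 draws it. The DR4 repeat of LXR receptors, a direct repeat of AGGTCA with 4 bases between its copies, was found in 0.0152% of all windows and in none of the 9 genes. No motif was shared by all 4 genes of the first group, and these matches are letters in a window, not measured binding.

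Clec4f encodes a C-type lectin that in mouse is the most restricted marker of Kupffer cells. It had 54.0, 117 and 37.9 CPM in TSDP 1, 2 and 5, against 0.0618, 28.2 and 18.7 CPM in Control 3, 4 and 5. All 3 TSDP values lay above all 3 Control values. Control 3 held 2 Clec4f reads, with an exact Poisson interval of 0.242 to 7.22 reads at the 95% level, which covers counting error only. The Clec4f log2 fold change was 2.15 ± 1.35 (SE, edgeR adjusted p = 0.51), and it was 1.53 without TSDP 2, 1.56 without Control 3, 2.88 without Control 4 and 4.08 with limma-voom.

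Timd4 encodes a receptor for phosphatidylserine on dying cells, carried by long-lived resident macrophages. Its levels were 12.4, 27.6 and 8.79 CPM in TSDP 1, 2 and 5, against 1.14, 8.65 and 6.04 CPM in Control 3, 4 and 5. The groups did not overlap, though TSDP 5 and Control 4 were 315 and 282 reads, close to each other. The fitted log2 difference was 1.62 ± 0.76 (SE, edgeR adjusted p = 0.41), or 0.99 without TSDP 2 and 1.13 without Control 3.

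Vsig4 encodes the complement receptor CRIg, with which Kupffer cells catch opsonised particles. It had 29.2, 57.1 and 21.4 CPM in TSDP 1, 2 and 5 and 6.18, 21.7 and 12.5 CPM in Control 3, 4 and 5. The groups overlapped, since TSDP 5 lay just under Control 4. Its log2 fold change was 1.42 ± 0.54 (SE), with an edgeR adjusted p of 0.365, and it was 0.90 without TSDP 2.

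Cd5l encodes a secreted scavenger protein that is a target of LXR in mouse macrophages and keeps them alive under stress. Its values were 65.9, 144 and 48.7 CPM in TSDP 1, 2 and 5, and 3.83, 52.6 and 24.0 CPM in Control 3, 4 and 5. TSDP 5 again lay under Control 4, so the groups overlapped. The log2 fold change of 1.68 ± 0.88 (SE) had an edgeR adjusted p of 0.449, and it was 1.08 without TSDP 2.

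Nr1h3 encodes LXR-alpha, an oxysterol receptor that maintains Kupffer cell identity and that hepatocytes express too. The TSDP tumours had 27.0, 37.3 and 23.4 CPM, against 7.66, 15.0 and 15.1 CPM in Control 3, 4 and 5. Every TSDP value exceeded every Control value by a clear step, with means of 29.2 ± 7.21 CPM in TSDP and 12.6 ± 4.26 CPM in Control (SD, n = 3 each). It had the smallest p among the 9, its log2 fold change being 1.21 ± 0.31 (SE, edgeR adjusted p = 0.326). DESeq2 called it (adjusted p = 0.0107) and edgeR did not, the adjusted p running from 0.0107 to 0.661 over the settings tried. DESeq2 called 2.98% of its genes higher and 0.397% lower.

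**Figure D1:**
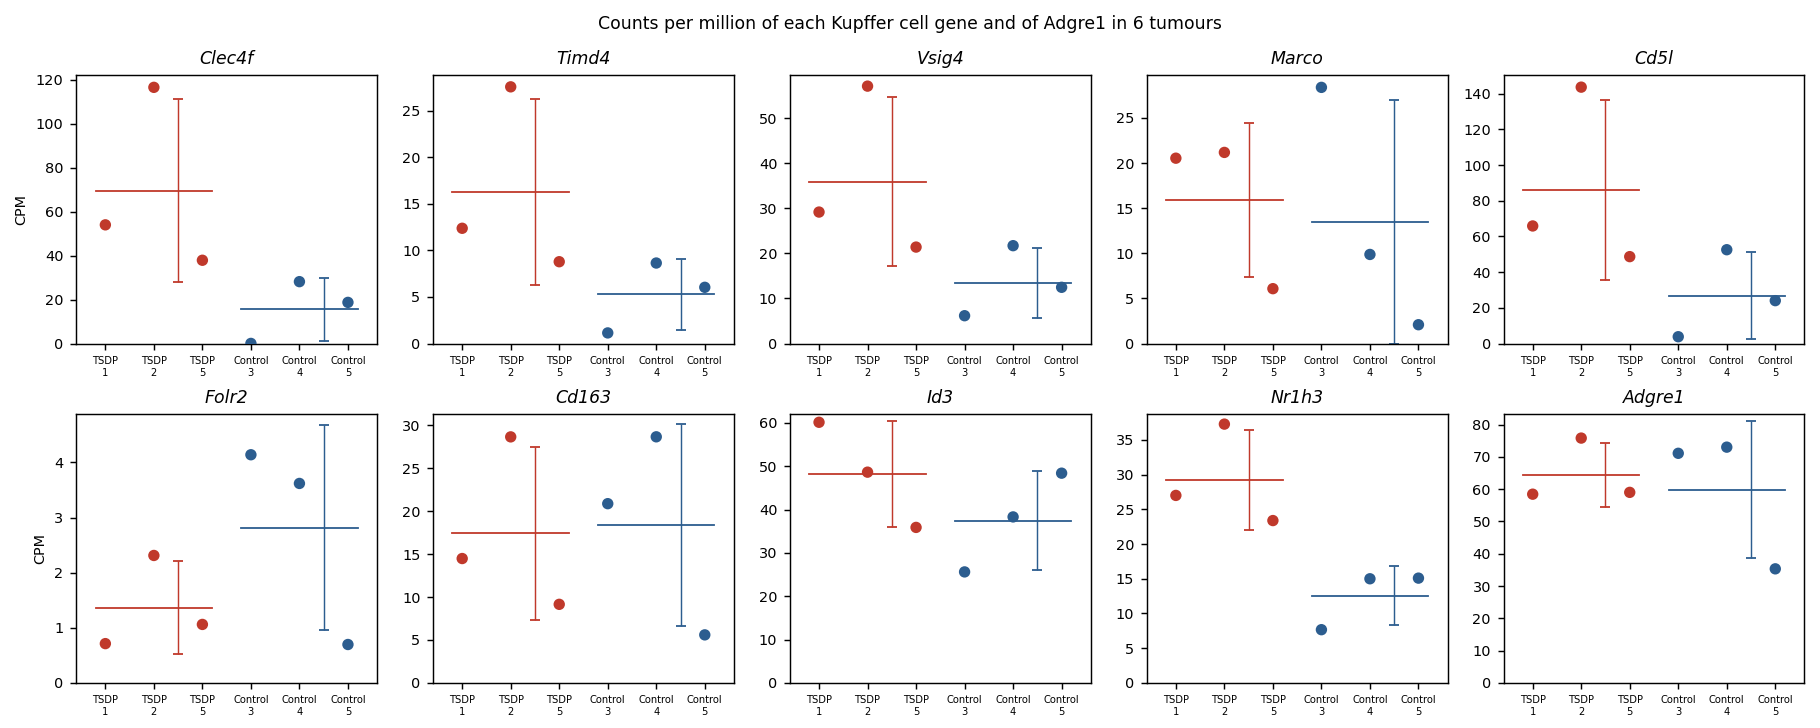
CPM (linear axes from 0) of the 9 Kupffer cell genes and Adgre1 in each tumour, TSDP in red and Control in blue. Horizontal lines are group means and bars 1 SD (n = 3 each). Clec4f, Timd4, Vsig4, Cd5l and Nr1h3 are lowest in Control 3 and highest in TSDP 2, while Marco and Folr2 are highest in Control 3.

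Marco, a scavenger receptor for bacteria and particles, showed a different order. It had 20.5, 21.2 and 6.08 CPM in TSDP 1, 2 and 5, against 28.4, 9.87 and 2.09 CPM in Control 3, 4 and 5. Control 3, with almost no Clec4f, had the highest Marco value of the 6 tumours. For Marco the fitted difference on the log2 scale was 0.25 ± 0.90 (SE, edgeR adjusted p = 0.919). It was 1.41 without Control 3, -0.28 without Control 5 and -0.014 without TSDP 2, so its sign rested on which tumours were kept.

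Cd163 encodes a receptor that takes up haemoglobin. Its levels were 14.5, 28.7 and 9.15 CPM in TSDP 1, 2 and 5, and 20.9, 28.7 and 5.59 CPM in Control 3, 4 and 5. The ranges of the groups nearly coincided. The log2 fold change was -0.08 ± 0.65 (SE, edgeR adjusted p = 0.967), with the sign turning in 5 of the alternatives tried.

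Folr2, a folate receptor of tissue-resident macrophages, was the weakest of the 9, with 26 to 80 reads in the TSDP libraries and 28 to 134 in the Control libraries. It had 0.712, 2.31 and 1.06 CPM in TSDP 1, 2 and 5, and 4.14, 3.62 and 0.696 CPM in Control 3, 4 and 5. The log2 fold change was -1.05 ± 0.74 (SE, edgeR adjusted p = 0.551), or -0.67 without Control 3 and -1.67 without TSDP 2, and the groups overlapped. Its exons share 975 bases with the antisense gene Gm10602, which had 14 to 42 reads in TSDP and 17 to 38 in Control, and the strand setting of the counting is not given in the sources used here.

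Id3 encodes an inhibitor of helix-loop-helix factors that Kupffer cells need in mouse, and that endothelial and other cells make as well. It had 60.1, 48.6 and 35.9 CPM in TSDP 1, 2 and 5, against 25.6, 38.3 and 48.4 CPM in Control 3, 4 and 5. The values overlapped, and this gene spanned the smallest range of the 9, at 2.35-fold between the highest and lowest tumour. Its log2 fold change was 0.36 ± 0.28 (SE, edgeR adjusted p = 0.584).

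In count, 3 of the 9 genes had groups that did not overlap (Clec4f, Timd4 and Nr1h3), all higher in TSDP, where 13% of all genes tested were higher and 8.76% lower without overlap. The number was 6 without TSDP 5, 5 without Control 4 and 3 without Control 3, again all higher. The share of all genes without overlap in either direction was then 37.6%, 42.1% and 27.6% in turn. Without Control 5 the direction was mixed, with 3 genes higher and 1, Folr2, lower. The share of all genes was not taken for that case.

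Levels can be set against each other only per length, here as transcripts per 1000000 (TPM) over the exon length of GENCODE M21. In TSDP tumours Cd5l led with 127 ± 64.8 TPM, followed by Clec4f at 84.8 ± 44.1, Id3 at 83.3 ± 21.6 and Vsig4 at 73.1 ± 32.5 TPM (SD, n = 3 each). In Control tumours Id3 led with 72.4 ± 22.0 TPM, before Cd5l at 44.1 ± 38.4, Vsig4 at 30.8 ± 16.1, Marco at 24.8 ± 26.0 and Clec4f at 21.3 ± 19.0 TPM (SD, n = 3 each). Next in TSDP came Nr1h3 at 35.6, Marco at 25.2 and Timd4 at 22.5 TPM, and in Control Nr1h3 at 17.2, Cd163 at 11.5 and Timd4 at 8.22 TPM. Folr2 was lowest in both groups, at 2.66 ± 1.44 TPM in TSDP and 6.31 ± 4.23 TPM in Control, and Cd163 stood at 9.63 ± 4.84 TPM in TSDP. In TSDP the steps from Vsig4 to Nr1h3, from Timd4 to Cd163 and from Cd163 to Folr2 were wider than the larger SD of the genes compared, and no step between neighbours among the 9 was in Control. Adgre1 had 61.3 ± 4.76 TPM in TSDP and 63.9 ± 22.2 TPM in Control, above 5 of the 9 genes in TSDP and above 8 of them in Control.

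Adgre1 itself had 58.4, 75.8 and 59.0 CPM in TSDP 1, 2 and 5, against 71.1, 73.0 and 35.3 CPM in Control 3, 4 and 5. Its log2 fold change was 0.11 ± 0.29 (SE, edgeR adjusted p = 0.887) and stayed above 0 under each scaling tried, but it was -0.03 without TSDP 2 and -0.18 without Control 5. Control 3 was therefore not low in this receptor, and Control 5 was the lowest of the 6.

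Set against Adgre1, Clec4f, Cd5l and Vsig4 had higher ratios in every TSDP tumour than in any Control tumour. There were 92.5, 154 and 64.3 Clec4f reads per 100 Adgre1 reads in TSDP 1, 2 and 5, against 0.0869, 38.6 and 53.1 in Control 3, 4 and 5. Cd5l had 113, 189 and 82.5 reads per 100 in TSDP, against 5.39, 72.0 and 68.1 in Control. Vsig4 had 49.9, 75.3 and 36.3 in TSDP, against 8.69, 29.7 and 35.3 in Control. For these 3 genes the groups did not overlap, although TSDP 5 exceeded Control 5 for Vsig4 by less than 1 read per 100. Their exact two-sided permutation p on the log2 ratio was 0.1 each, the smallest that 3 against 3 libraries allow. Among all genes tested, 6.26% had ratios to Adgre1 that were higher in TSDP without overlap and 3.74% lower.

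Timd4 and Nr1h3, which did not overlap in CPM, did overlap in this ratio, with Control 5, the lowest in Adgre1, inside the TSDP range. Timd4 had 21.2, 36.4 and 14.9 reads per 100 Adgre1 reads in TSDP 1, 2 and 5, and 1.61, 11.8 and 17.1 in Control 3, 4 and 5 (exact permutation p = 0.2). Nr1h3 had 46.2, 49.2 and 39.6 in TSDP, and 10.8, 20.5 and 42.7 in Control (exact permutation p = 0.2). Without Control 5, 7 of the 9 genes had ratios without overlap (6 higher, 1 lower), where 29.4% of all genes had none in either direction. Without TSDP 5 there were 5, all higher, beside 16.8% of all genes. Leaving out a library can only keep or raise such counts.

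The ratios of the remaining genes overlapped widely. Marco had 10.3 to 35.1 reads per 100 Adgre1 reads in TSDP and 5.91 to 39.9 in Control, and Cd163 15.5 to 37.8 in TSDP and 15.8 to 39.3 in Control. Folr2 had 1.22 to 3.05 in TSDP and 1.97 to 5.82 in Control. Id3 reached its highest ratio, 137 reads per 100, in Control 5, and had 60.8 to 103 in TSDP and 36.0 to 137 in Control.

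**Figure D2:**
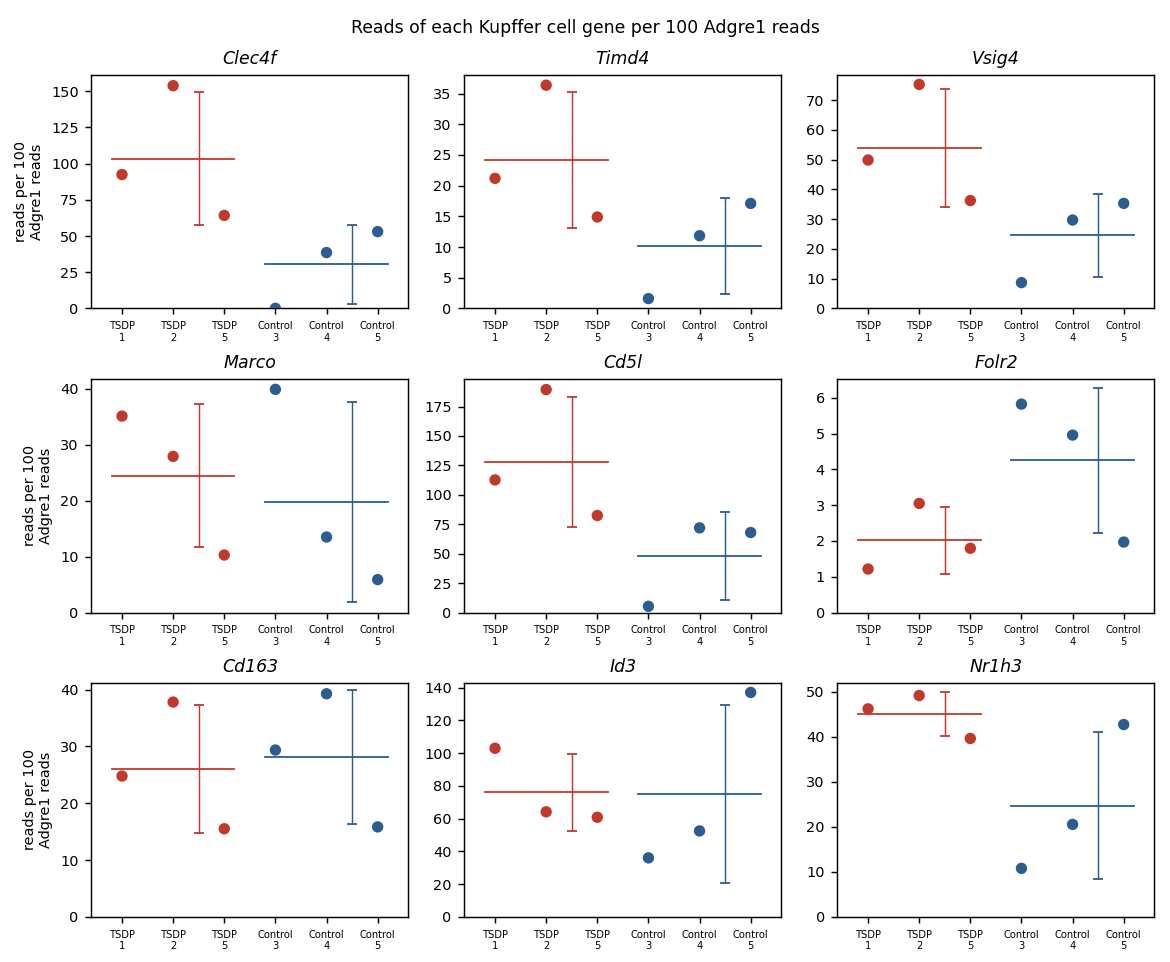
Reads of each Kupffer cell gene per 100 Adgre1 reads of the same library (linear axes from 0), TSDP in red and Control in blue, with group means and 1 SD (n = 3 each). Clec4f, Vsig4 and Cd5l show TSDP above Control in every pair of tumours, and Control 3 lies near 0 for Clec4f, Timd4 and Cd5l.

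An edgeR fit with the Adgre1 count of each library as its size called 1 of the 9 genes, Clec4f (log2 fold change 1.76 ± 0.48 SE, adjusted p = 0.00848), with 4.08% of all genes called higher and 0.27% lower. That fit gave no gene a spread of its own, whereas the log2 ratio of Clec4f had an SD of 5.22 over the Control libraries and 0.632 over the TSDP libraries (n = 3 each). With a robust estimate of the spread the edgeR adjusted p of Clec4f was 0.925. The call was also lost with Cd68, another macrophage gene, as denominator (adjusted p = 0.508) and with 12 summed macrophage genes (adjusted p = 0.623). It was lost without TSDP 1 (0.0894), without TSDP 2 (0.42), without Control 3 (0.534) and without Control 5 (0.676). Without Control 4 the fit called 2 of the 9 genes, Clec4f and Cd5l, and 861 of all genes. Clec4f is therefore given as a value and not as a call.

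The order of the tumours was the same for Clec4f and Timd4: TSDP 2, TSDP 1, TSDP 5, Control 4, Control 5, Control 3. Vsig4 and Cd5l shared another order, which differs only in placing Control 4 before TSDP 5. The summed hepatocyte markers had the order of Clec4f, with TSDP 5 and Control 4 almost equal. They reached 31329, 59510 and 19859 CPM in TSDP 1, 2 and 5, and 124, 19852 and 3787 CPM in Control 3, 4 and 5. All 12 hepatocyte markers had log2 fold changes above 0, 8 of them without overlap (beside 47.3% and 13% of all genes), 0 passed, and none was at 0 reads in any library. The 8 markers of sinusoidal endothelium summed to 390 to 717 CPM in TSDP and 233 to 340 CPM in Control. Of these, 8 of 8 were above 0, 6 were higher without overlap (beside the same shares of all genes) and 0 passed. In Control 3 the sum was 292 CPM, of which Fcgr2b gave 252 CPM, against 194 and 148 CPM of Fcgr2b in Control 4 and 5. Stab2, Clec4g, Oit3, Gpr182 and Dnase1l3 had 0.0309 to 2.996 CPM in Control 3, against 3.11 to 34.1 CPM in Control 4 and 5. Flt4 had 11.6 CPM in Control 3, against 22.4 and 15.8 CPM in Control 4 and 5. Lyve1, at 22.0 CPM in Control 3, lay between Control 4 (36.1 CPM) and Control 5 (16.9 CPM). Summed over 12 genes of macrophages in general, the levels were 2070 to 2747 CPM in TSDP and 1447 to 2309 CPM in Control.

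Because hepatocyte RNA ran in this order too, the levels were also taken per 1000 CPM of the summed hepatocyte markers, a ratio chosen after the values had been seen. Clec4f then had 1.72, 1.96 and 1.91 in TSDP 1, 2 and 5, and 0.498, 1.42 and 4.95 in Control 3, 4 and 5. Cd5l had 2.1, 2.41 and 2.45 in TSDP, and 30.9, 2.65 and 6.35 in Control. The 3 TSDP tumours lay close together in both genes, and the Clec4f groups overlapped. For Cd5l, Vsig4, Folr2, Cd163 and Id3 all TSDP ratios lay below all Control ratios, as they did for 45.9% of all genes tested, so the 5 of 9 were near that background. Per 100 CPM of the summed sinusoidal markers, Clec4f had 13.0, 16.3 and 9.72 in TSDP 1, 2 and 5, against 0.0212, 8.29 and 8.03 in Control 3, 4 and 5. These did not overlap, while the ratios of the other 8 genes did, and 3.88% of all genes tested were higher without overlap on this ratio. In Control 3, Fcgr2b alone gave 252 of the 292 CPM of the sinusoidal sum, so the ratio there was mostly a ratio to Fcgr2b. The part of other cells in these results was not tested.

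**Figure D3:**
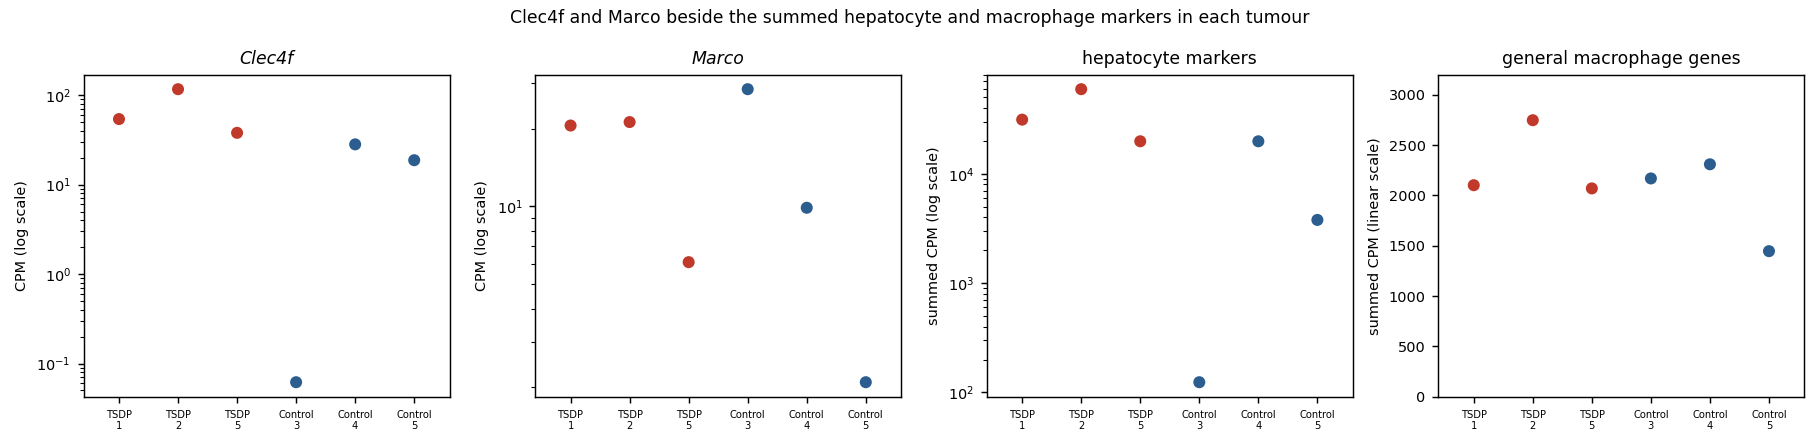
Clec4f and Marco (CPM, log axes), the summed CPM of 12 hepatocyte markers (log axis) and of 12 general macrophage genes (linear axis) in each tumour, TSDP in red and Control in blue. Clec4f and the hepatocyte markers are both lowest in Control 3 (0.0618 and 124 CPM), where Marco is highest (28.4 CPM) and the macrophage sum is 2168 CPM.

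Over the 6 libraries, the genes whose log2 CPM ran most like Clec4f were Tnfrsf4, Art4 and Bco1, with Pearson r of 0.999, 0.998 and 0.997. Those most like Timd4 were Treml4, Wfdc1 and Sla2, each with r of 0.999. For Marco they were Il1rl2 (r = 0.998), Smim27 (r = 0.987) and Fpr1 (r = 0.982), the last a formyl peptide receptor of phagocytes. For Vsig4 they were Txnrd2 (r = 0.999), Gngt2 (r = 0.999) and Fgfr3 (r = 0.998), and for Cd5l Epha1, Slc16a12 and Icam1 (r = 0.999 each). Nr1h3 was nearest to Lrit1 (r = 0.998), Ackr2 (r = 0.998) and Crem (r = 0.997). For Cd163 they were Adamts9 (r = 0.994), Pira2 (r = 0.992) and Tspan32 (r = 0.991). Folr2 ran most like Cacna1d (r = 0.995), Enox1 (r = 0.993) and Eral1 (r = 0.990), and Id3 most like Foxred1 (r = 0.989), Cyp4f18 (r = 0.986) and Zfp637 (r = 0.985). These are the nearest among the 17423 tested genes, after genes without a symbol or with a predicted, clone-like or pseudogene-like symbol were left out. They rest on 6 points that share library and depth, and are given as a description.

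Other genes of Kupffer cells, 12 that are not among the 9, had a median log2 fold change of 1.45, with 11 of 12 above 0 and 0 past the edgeR threshold. Of these, 7 were higher in TSDP without overlap, beside 13% of all genes. C6, a complement component that hepatocytes also make, had the smallest p of the list. It had 92.8, 170 and 50.3 CPM in TSDP 1, 2 and 5, against 4.14, 28.8 and 9.40 CPM in Control 3, 4 and 5 (log2 fold change 2.89 ± 0.80 SE, edgeR adjusted p = 0.326). Spic, a transcription factor of macrophages that recycle iron, averaged 3.53 ± 1.69 CPM in TSDP and 0.912 ± 0.741 CPM in Control (SD, n = 3 each). Slc40a1, the iron exporter ferroportin, averaged 165 ± 103 CPM in TSDP and 34.9 ± 23.5 CPM in Control (SD, n = 3 each). Both followed the order of Clec4f, with Control 3 lowest. Axl, a receptor for dying cells, averaged 948 CPM in TSDP and 1016 CPM in Control and was the 1 gene of the list below 0.

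Macrophage genes that are not particular to the liver were spread to both sides of 0. On the log2 scale the general macrophage genes had a median fold change of 0.17 with 9 of 12 above 0, from -1.0 for the integrin gene Itgam to 0.64 for Aif1. The list of monocytes and tumour macrophages had a median of 0.16 with 5 of 10 above 0, from -3.82 for Chil3 to 2.18 for Gpnmb, and 0 passed in either list. Aif1, an actin-binding protein of macrophages, had the smallest p of the first list, with 29.3 ± 2.47 CPM in TSDP and 18.8 ± 6.91 CPM in Control (SD, n = 3 each, edgeR adjusted p = 0.378). Ly6c2, a surface marker of inflammatory monocytes, had that of the second, with 6.53 ± 2.66 CPM in TSDP and 3.16 ± 1.40 CPM in Control (SD, n = 3 each, edgeR adjusted p = 0.387). The difference between these lists and the Kupffer lists was not tested.

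Signals of the liver niche had a median of 0.08, with 7 of 12 above 0 and 0 past the threshold. For 5 of them, Gdf2, Bmp10, Bmp6, Eng and Dll4, all TSDP values lay above all Control values, beside 13% of all genes. Gdf2, which encodes BMP9, averaged 14.7 ± 10.1 CPM in TSDP and 2.81 ± 2.29 CPM in Control (SD, n = 3 each). Bmp10 had 1.90 to 5.09 CPM in TSDP, and 0, 0.828 and 1.39 CPM in Control 3, 4 and 5. Bmp6, with the smallest p of the list, averaged 2.59 ± 1.5 CPM in TSDP and 0.604 ± 0.338 CPM in Control (SD, n = 3 each, edgeR adjusted p = 0.329). The growth factors of macrophages Csf1 and Il34 were at 133 and 24.8 CPM in TSDP and 146 and 30.9 CPM in Control. Dll4, the Notch ligand of sinusoidal endothelium, averaged 11.0 CPM in TSDP and 8.97 CPM in Control. In the family of Id3 and its upstream pathway, 4 of 6 genes were above 0 and 0 passed, with Id4 at 4.07 ± 1.71 CPM in TSDP and 1.85 ± 0.0956 CPM in Control (SD, n = 3 each, edgeR adjusted p = 0.334).

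Among targets of LXR, the receptor that Nr1h3 encodes, 7 of 8 were above 0 with a median of 0.36, and 0 passed. Scd1, a fatty acid desaturase, had the smallest p, with 1652 ± 419 CPM in TSDP and 719 ± 203 CPM in Control (SD, n = 3 each, edgeR adjusted p = 0.326). Apoe, the lipid carrier, averaged 3274 CPM in TSDP and 753 CPM in Control, and both genes are abundant in hepatocytes. The cholesterol exporters Abca1 and Abcg1 had log2 fold changes of 0.45 and -0.40.

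The lists of receptors and partners related to the 9 genes had 0 members past the threshold. Of other scavenger receptors 3 of 6 were above 0, and Cd36 had the smallest p, at 57.2 ± 30.1 CPM in TSDP and 20.1 ± 9.60 CPM in Control (SD, n = 3 each, edgeR adjusted p = 0.334). Of the TIM family and genes of phosphatidylserine uptake 4 of 5 were above 0, and Havcr1, a kidney and lymphocyte receptor of that family, had the smallest p at 0.391 to 0.549 CPM in TSDP and 0 to 0.215 CPM in Control. In the haem list 3 of 5 were above 0. Its member Blvrb, a biliverdin reductase, averaged 30.0 ± 6.37 CPM in TSDP and 19.3 ± 1.73 CPM in Control (SD, n = 3 each, edgeR adjusted p = 0.326), and Lrp1, the receptor for haem bound to hemopexin, 1255 CPM in TSDP and 1902 CPM in Control. Haptoglobin (Hp), which binds haemoglobin, had 591 to 2208 CPM in TSDP and 6.46 to 1715 CPM in Control. Of the folate carriers 3 of 4 could be tested and all 3 were above 0, Slc46a3 with the smallest p at 12.5 ± 4.53 CPM in TSDP and 5.33 ± 1.65 CPM in Control (SD, n = 3 each, edgeR adjusted p = 0.326).

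**Figure D4:**
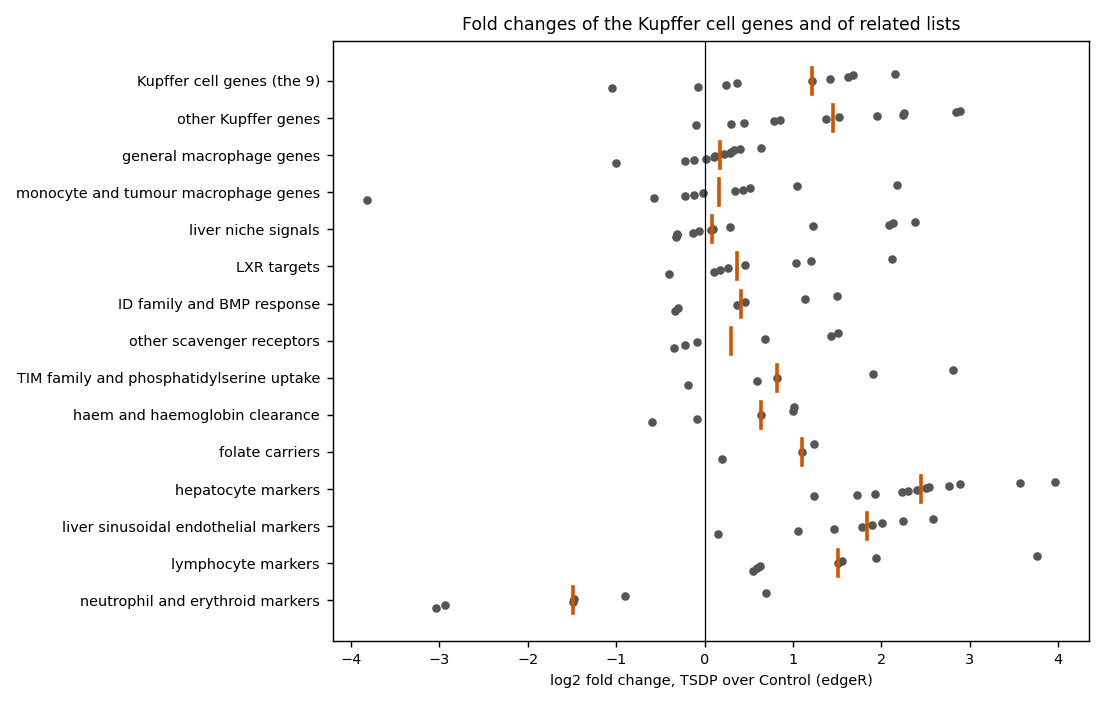
Log2 fold changes (TSDP over Control, edgeR) of the tested genes in each list, 1 point per gene, with the median of the list as an orange bar. The Kupffer lists have medians of 1.21 and 1.45, the 2 lists of other macrophages 0.17 and 0.16, and the hepatocyte markers 2.45, with all 6 tumours and edgeR.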

How the data were processed

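Per the labels' protocols, an RNeasy kit gave the RNA of the 6 tumours and KAPA mRNA HyperPrep the libraries. HISAT2 2.1.0, featureCounts 2.0.0, Trimmomatic 0.38, CASAVA, MultiQC and FastQC are named in the submitters' processing notes. Genome build, annotation and strandedness were not given in the sources used here. All 55536 gene identifiers of the deposited table are those of GENCODE M21 (GRCm38), which supplied exon lengths. The authors deposited whole read counts per gene, not normalized, 1 column per library. A second deposited table gives a normalized signal, each value being the count divided by 1 constant per library, and supplied the gene symbols only. No column belonged to another sample.

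Counts were tested with edgeR 4.0.16 in R 4.3.3: filterByExpr (minimum count 10), TMM, glmQLFit (legacy) and glmQLFTest with the group as the only term, and adjustment over 17423 genes. SE was taken from the fold change and the root of F. TPM values were computed here. No pair of libraries agreed within counting noise (lowest chi-square per gene 47.7), and all 6 were kept as separate samples. The fit relative to Adgre1 used the Adgre1 count as library size. It was written as the test of that ratio but gave no gene a spread of its own, so ratios are reported with an exact permutation test (scipy 1.17.1). Alternatives were other scalings, filters, denominators, DESeq2 1.42.0, limma 3.58.1 and leaving out each library. Counts of genes without overlap were set beside the same share over all genes tested. The steps were tested on simulated data. The members, lists and tests were chosen with earlier results of these data known. Named genes are the 9, Adgre1, the gene with the smallest p of each other list and the 3 genes most like a member; Spic, Slc40a1, Axl, Gdf2, Bmp10, Csf1, Il34, Dll4, Eng, Apoe, Abca1, Abcg1, Lrp1, Hp, Itgam, Chil3, Hba-a1, Gpnmb and Afp were added after their values were seen.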

Additional observations from a re-analysis of the deposited data

How the results depend on the processing

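No paired analysis was run, since the labels pair no TSDP tumour with a Control tumour. The groups share replicate number 5, but the labels do not say that equal numbers mark a pair. Of the 9 genes, 0 were called by edgeR under every scaling and filter tried, by limma-voom and without any 1 library, and DESeq2 called 1 (Nr1h3). Over all genes edgeR called 0 under the same scalings and without any 1 library, 1 without the filter on low counts, and DESeq2 called 620. Relative to Adgre1 the 1 call was 0 with Cd68, 0 with summed macrophage genes, 0 with a robust spread (an alternative added after the data were seen), and 0 to 2 with a library left out. All genes called relative to Adgre1 numbered 758, and 87, 13 and 394 under those 3 alternatives, and 0 to 861 with a library left out. Genes without overlap numbered 3 to 6 with a library left out, and 3 to 7 relative to Adgre1.

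Signs turned for genes near 0, and the cause was not tested. With a library left out the log2 fold change ran from -0.64 to 0.40 for Cd163 and from -0.28 to 1.41 for Marco. Relative to Adgre1 it ran from -0.48 to 0.20 for Cd163, from -0.13 to 1.33 for Marco and from -0.32 to 0.78 for Id3. Cd163 was at 0.11 with limma-voom and at 0.14 relative to Cd68. Clec4f, Timd4, Vsig4, Cd5l and Nr1h3 kept a positive sign, and Folr2 a negative one, in every alternative run. The median of the 9 was 0.90 to 1.36 with a library left out, and that of the other Kupffer genes 0.95 (without TSDP 2) to 1.71. The hepatocyte median was 1.87 without Control 3, 4.30 without Control 4 and 4.15 with limma-voom. Without Control 5 the medians of general macrophage genes and scavenger receptors were just below 0 (-0.0036 and -0.0092), and without TSDP 2 those of monocyte genes and scavenger receptors were -0.12 and -0.25. Adgre1 ran from -0.18 to 0.27. Few reads were counted for Folr2 and, in Control 3, for Clec4f. Control 3 was not the shallowest library, with 32533852 reads against 32130808 in Control 4.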

Other observations

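Control 3 also differed from the other 5 tumours in genes outside the Kupffer lists. Chil3, a lectin of alternatively activated macrophages, had 3.53, 1.3 and 2.43 CPM in TSDP 1, 2 and 5, against 99.2, 2.09 and 1.59 CPM in Control 3, 4 and 5. Hba-a1, a haemoglobin chain, had 13.6, 15.7 and 11.0 CPM in TSDP and 281, 21.3 and 6.26 CPM in Control. Gpnmb, a glycoprotein of lipid-laden macrophages, had its highest value in TSDP 2, at 141 CPM, with 8.68 and 3.71 CPM in TSDP 1 and 5 and 8.00 to 14.6 CPM in Control. The list of lymphocyte markers had 7 of 7 genes with log2 fold changes above 0 and 0 past the edgeR threshold. Its member Jchain, a joining chain of antibodies, had 10.7, 57.0 and 39.2 CPM in TSDP, against 0.556, 2.91 and 4.35 CPM in Control. Of the neutrophil and erythroid markers 1 of 6 was above 0, and S100a8, a calcium-binding protein of neutrophils, averaged 2.13 ± 0.338 CPM in TSDP and 5.99 ± 3.14 CPM in Control (SD, n = 3 each, edgeR adjusted p = 0.326). Flt4 and Tat had the smallest p among the sinusoidal and hepatocyte markers, at 45.6 and 247 CPM in TSDP and 16.6 and 15.8 CPM in Control (edgeR adjusted p = 0.326 and 0.342).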
